A study of Mus musculus with 21 samples.

Results

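H2Bub1 was compared between differentiated J1 cells in which Fbxl19 was knocked down and differentiated J1 cells without the knockdown, both at day 4. J1 is a mouse embryonic stem (ES) cell line. The comparison rests on 4 of the 21 chromatin immunoprecipitation and sequencing (ChIP-seq) samples of the series, 2 of the differentiated knockdown and 2 of the differentiated cells, taken by their titles. Each pair was deposited as 1 combined list of domains, so the regions described are the 1090 domains of the differentiated knockdown and the 5125 domains of the differentiated cells. Both groups were precipitated with the same H2Bub1 antibody. The labels give all of them as J1 mouse ES cells grown with leukemia inhibitory factor, and differentiation appears in the titles and list names only. With no gene names in the files, the differentiated state could not be checked against marker genes. The sources used here do not give the way the cells were differentiated or how much Fbxl19 the knockdown left. An input sample is titled for differentiated cells and none for the differentiated knockdown.

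Fbxl19 belongs to the F-box proteins and carries a CXXC domain, a module that binds unmethylated CpG and so brings proteins to CpG islands, which lie at the starts of many genes. Rnf20 is the ligase that attaches a single ubiquitin to histone H2B, and the resulting mark, H2Bub1, is known to accumulate over the bodies of transcribed genes, downstream of their starts. The series is titled for a role of Fbxl19 in bringing Rnf20 to these islands and in establishing the mark. The positions of Fbxl19 were taken from ES cells, from a clone that overexpresses flag-biotin tagged protein above 5-fold (OE-high, 13669 peaks) and from one labelled as under the endogenous amount (OE-low, 2213 peaks), each pulled down on streptavidin. Rnf20 positions (8606 peaks) came from 1 pulldown in ES cells that contain BirA, a biotin ligase. Neither protein was mapped in differentiated cells in the lists used here.

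A differentiated domain is called kept where a domain of the differentiated knockdown overlaps it by at least 1 bp, and lost where none does. Lost means that no domain is listed, since the files hold domains and the authors' scores but no read counts. Neither the depth per sample nor the spread between replicates could be had, so no p-value was computed. Values of single samples were likewise not analysed here. Intervals are exact Clopper-Pearson 95% intervals, or order-statistic intervals for medians, and cover counting error in the number of domains only. Each track line holds a number followed by M whose meaning is not stated, 41 for the differentiated knockdown and 36 for differentiated cells. In these bulk samples, fewer cells with the mark and less of the mark per cell cannot be told apart.

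Most H2Bub1 domains of differentiated cells were not listed with Fbxl19 knocked down. The differentiated knockdown had 0.213 times as many domains as differentiated cells and 0.100 times the covered length, 15.6 Mb against 156 Mb. Of the 5125 differentiated domains, 4157 were lost, which is 81.1% (interval 80.01 to 82.2), and 968 were kept, which is 18.9% (interval 17.8 to 19.99). Only 9.23% of the length of the differentiated domains remained, 14.4 Mb. Lost domains made up 78.5% of that length, and the part missing from kept domains a further 12.3%. The kept share was 47.8% when the differentiated list was limited to its 1090 highest scores, 9.07% when 50% of the domain had to be covered and 16.1% without chromosomes 1 and 11.

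Kept domains were themselves shortened. A median of 47.7% of a kept domain was covered (interval 44.1 to 51.2), with quartiles of 24.7% and 74.1%. Under 25% of the length remained in 244 of the 968 kept domains, at least 90% in 125, and the whole domain in 52. Nearly all kept domains held a single remaining piece, and 28 held 2. For comparison, ES domains that were kept in ES cells with the knockdown were covered at a median of 98.6% (interval 97.9 to 99.4, 1532 domains). The ES comparison comes from other libraries, and the difference between the 2 cell states was not tested.

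The domains that were kept carried high scores in differentiated cells. The median score of kept domains was 14.3 (interval 13.9 to 14.8), against 9.61 (interval 9.51 to 9.70) for lost domains. In the lowest quartile group of scores 72 of 1282 domains were kept, or 5.62% (interval 4.42 to 7.02). In the highest quartile group 562 of 1281 were kept, or 43.9% (interval 41.1 to 46.6). Length went the same way over a narrower range. Of the shortest quartile group, up to 9000 bp, 12.1% were kept (interval 10.4 to 14.0), and of the longest quartile group, from 39600 bp, 23.8% (interval 21.5 to 26.3). The median length was 26400 bp for kept and 18400 bp for lost domains, a ratio of 1.43. This order turned when 50% of the domain had to be covered, with a ratio of 0.86. The median covered part was 75.7% in the shortest quartile group of kept domains and 32.2% in the longest.

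**Figure D1:**
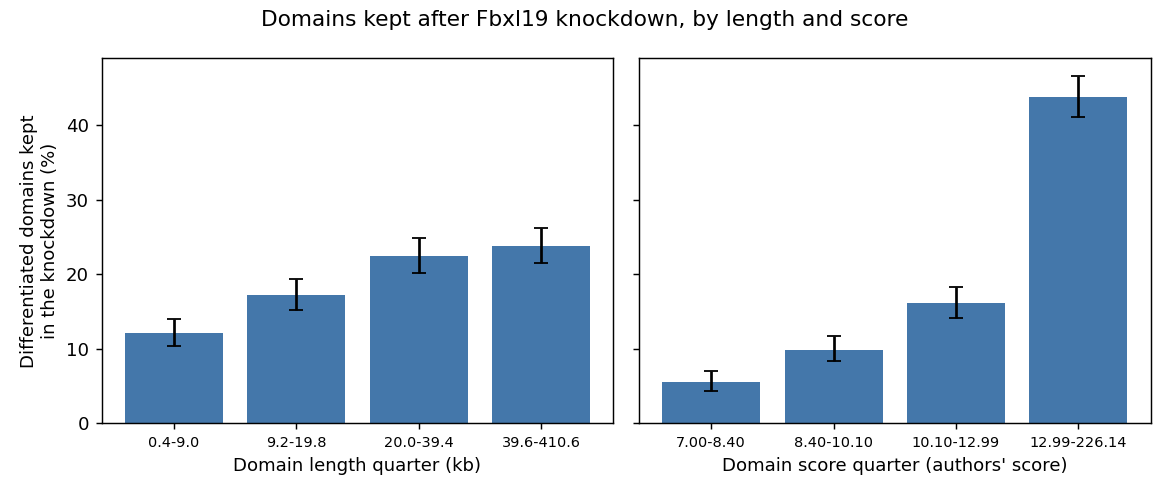
Percent of differentiated H2Bub1 domains kept with Fbxl19 knocked down (y axis), by quartile group of domain length in kb (left) and of the authors' domain score (right). Bars are shares and whiskers exact 95% intervals over domains. The share was 43.9% in the highest quartile group of scores and 5.62% in the lowest, and 23.8% in the longest and 12.1% in the shortest quartile group.

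The highest-scoring lost domain was a region of 400 bp at chr13:77578000-77578399 on the mm9 build (score 56.3), with no Fbxl19 or Rnf20 peak and no domain in any other H2Bub1 list. It was followed by chr17:3079200-3084799 (score 44.9), where 2 OE-high and 1 OE-low Fbxl19 peaks and 1 Rnf20 peak were found. The third, chr11:5328600-5344799 (score 36.9), held 1 OE-high Fbxl19 peak. Both of these were listed in ES cells with the knockdown and in OE-high ES cells, so they were not missing from every knockdown list. The longest lost domain spanned 410600 bp at chr14:12386200-12796799 with a score of 8.28, 1 OE-high Fbxl19 peak and 1 Rnf20 peak. Next came chr11:34934600-35320399, of 385800 bp and score 7.16, with 4 OE-high Fbxl19 peaks and no domain in any other H2Bub1 list. The third longest, chr1:91351400-91621199, spanned 269800 bp with a score of 11.7. The scores of the 2 longest lay below the list median of 10.1, and that of the third above it.

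Lost domains carried Fbxl19 and Rnf20 less often than kept domains did. Fbxl19 of the OE-high clone had a peak in 2891 of the 4157 lost domains, or 69.5% (interval 68.1 to 70.9), against 816 of the 968 kept domains, or 84.3% (interval 81.9 to 86.5). The difference, lost minus kept, was -14.8 percentage points. An OE-low peak lay in 10.3% of lost (interval 9.43 to 11.3) and 18.7% of kept domains (interval 16.3 to 21.3). For Rnf20 the shares were 28.6% (interval 27.2 to 29.98) and 47.1% (interval 43.9 to 50.3). With length and score each cut at the quartiles, Fbxl19 was less frequent in lost domains in 15 of the 16 combinations and Rnf20 in 14 of 16, the combinations holding 3 to 167 kept domains. The Fbxl19 exception was the combination with 3 kept domains. When the differentiated list was cut to 1090 domains the Fbxl19 difference was -7.07 percentage points, with the top 50% of the H2Bub1 and Fbxl19 lists it was -7.16, and with 50% of the domain covered -6.78.

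Domains that held both proteins in ES cells were kept most often. Of 1449 domains with Fbxl19 and Rnf20, 29.3% were kept (interval 26.9 to 31.7). With Fbxl19 alone the share was 17.4% of 2258 (interval 15.8 to 19.0), with Rnf20 alone 16.4% of 195 (interval 11.5 to 22.4), and with neither 9.81% of 1223 (interval 8.20 to 11.6). Within the shortest quartile group of domains these 4 shares were 26.2%, 8.33%, 22.0% and 6.44%, so Rnf20 alone stood above Fbxl19 alone there. Within the longest quartile group they were 29.5%, 22.9%, 15.4% and 14.7%. Of domains with both proteins 424 of 1449 were kept, so most of these were lost too, against 81.1% lost over all domains.

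The kept share varied little with the strength of the Fbxl19 peak at a domain end. Among the domains of at least 5 kb with an OE-high Fbxl19 summit within 1 kb of exactly 1 end, the kept share was 21.4% (interval 18.3 to 24.9) in the lowest quartile group of the authors' peak score and 24.2% (interval 20.9 to 27.8) in the highest. The middle groups gave 20.4% and 21.7%, and all 4 intervals overlap. It varied more with the number of ends that had a summit. The kept share was 32.1% (interval 24.2 to 40.8) with a summit at both ends, 21.9% (interval 20.3 to 23.6) with a summit at 1 end and 16.5% (interval 14.9 to 18.3) with none at either end.

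Many of the kept domains were already marked in ES cells. Of 1284 differentiated domains that met a domain both in ES cells with the knockdown and in ES cells without it, 45.5% were kept (interval 42.7 to 48.3). Of 835 that met one in ES cells alone, 20.2% were kept (interval 17.6 to 23.1). The share was 21.9% (interval 16.2 to 28.5) of 187 that met one only in ES cells with the knockdown. Of 2819 that met one in neither, 6.17% were kept (interval 5.31 to 7.12). By length, 72.0% of the remaining part lay in an ES domain, against 32.9% of the part missing from kept domains and 17.9% of lost domains. Domains of OE-high ES cells covered 98.3% of the remaining part, but also 91.4% of the missing part of kept domains and 89.8% of lost domains.

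Within kept domains the remaining part most often lay at 1 end. Positions were read in the 906 kept domains of at least 5 kb, and an end was taken as remaining where a knockdown piece came within 1 kb of it. The remaining part reached 1 end in 611 domains, or 67.4% (interval 64.3 to 70.5). It lay in the interior without reaching an end in 200 domains, or 22.1% (interval 19.4 to 24.9; 13.5% with ends read as the outer 10% of the domain), and reached both ends in 95, or 10.5% (interval 8.57 to 12.7). The domains that kept both ends were the shortest, at a median of 14800 bp, and had the highest median score, 19.8. Those with an interior remnant were the longest, at a median of 42800 bp, and had the lowest median score, 12.04. The remaining length was similar in these 3 classes, with medians of 9200 bp at 1 end, 11800 bp at both ends and 9600 bp in the interior. The covered part was 44.1% at 1 end, 97.9% at both ends and 28.7% in the interior.

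The 3 classes differed in where Fbxl19 lay. Of the domains that remained at 1 end, 71.7% (interval 67.9 to 75.2) had an OE-high Fbxl19 summit within 1 kb of 1 end and 5.07% had one at both ends. Of those that kept both ends, 66.3% (interval 55.9 to 75.7) had a summit at 1 end and 10.5% at both. Of the interior class, 19.0% (interval 13.8 to 25.1) had a summit at 1 end and 80.5% (interval 74.3 to 85.8) had none at either. The interior class did not lack Fbxl19, since 93.5% of its domains (interval 89.1 to 96.5) held an Fbxl19 peak somewhere, against 83.6% (interval 80.5 to 86.5) of the class with 1 end.

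**Figure D2:**
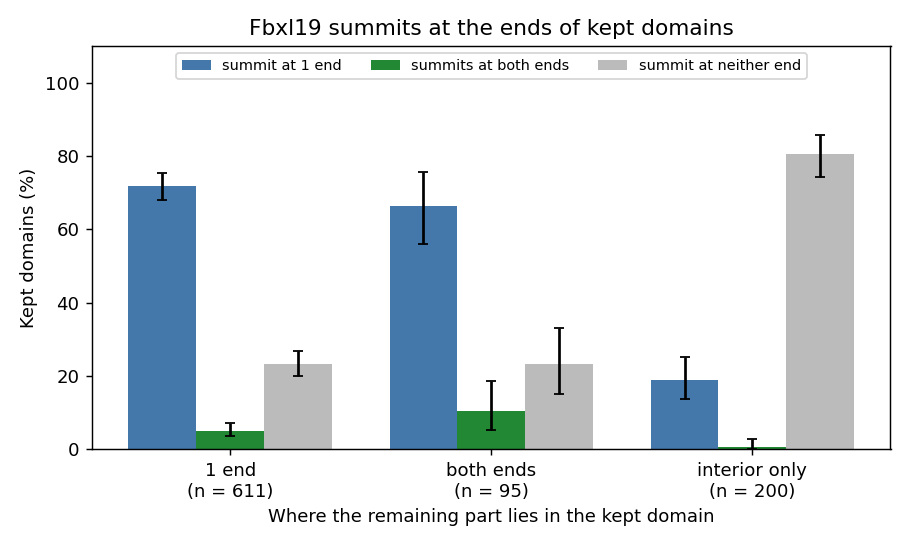
Percent of kept domains of at least 5 kb (y axis) with an OE-high Fbxl19 summit within 1 kb of 1 end, of both ends or of neither end, by where the part remaining in the differentiated knockdown lies (x axis). Bars are shares of the 611, 95 and 200 domains of the 3 classes and whiskers exact 95% intervals. A summit at neither end was found in 80.5% of the interior class and 23.2% of the class with 1 end.

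Where a single end remained and Fbxl19 lay at exactly 1 end, the remaining end was almost always the Fbxl19 end. Of the 611 domains in which a single end remained, 142 (23.2%) had no Fbxl19 summit at either end. These are left out here, as are 31 with a summit at both ends. In 438 domains a single end remained and an OE-high Fbxl19 summit lay at exactly 1 end, so that both ends of the same domain could be set against each other. The remaining end was the Fbxl19 end in 422 of them, or 96.3% (interval 94.1 to 97.9). The other 16 domains, 3.65%, remained at the end away from Fbxl19. The share was between 94.3% and 97.5% in the 4 quartile groups of length and between 93.5% and 97.7% in the 4 quartile groups of score. It was 98.3% with the Fbxl19 end at the lower coordinate (237 of 241) and 93.9% with it at the upper (185 of 197). It was 97.2% where a midpoint of an Rnf20 peak also lay at the Fbxl19 end (174 of 179) and 95.8% where none did (248 of 259), and the intervals, 93.6 to 99.1 and 92.5 to 97.9, overlap.

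OE-low summits gave 80 of 88 domains, or 90.9% (interval 82.9 to 96.0). Rnf20 midpoints gave 203 of 217, or 93.5% (interval 89.4 to 96.4). Of the 438 domains with Fbxl19 at 1 end, 179 had Rnf20 at the same end and 259 did not, and 11 domains had Fbxl19 at 1 end and Rnf20 at the other. The Fbxl19 end remained in 7 of these 11. Counted by ends, 536 of the 623 ends with Fbxl19 in kept domains remained, or 86.0% (interval 83.1 to 88.7), against 265 of the 1189 ends without, or 22.3% (interval 19.95 to 24.8).

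The same orientation was found without a knockdown. The shares at the Fbxl19 end below were also read only in domains with an Fbxl19 summit at exactly 1 end. Where an ES domain covered 1 end of a differentiated domain, it was the Fbxl19 end in 636 of 656 domains, or 97.0% (interval 95.3 to 98.1). Where ES cells with the knockdown retained 1 end of an ES domain, it was the Fbxl19 end in 182 of 193, or 94.3% (interval 90.03 to 97.1). In the differentiated knockdown the share was 98.1% in domains with no ES domain (106 of 108, interval 93.5 to 99.8) and 95.8% in those with one (316 of 330, interval 93.0 to 97.7), and these intervals overlap. The classes of position differed more between these pairs of lists. In the differentiated knockdown 10.5% of kept domains retained both ends and 22.1% only an interior part. In ES cells with the knockdown these shares were 66.2% (interval 63.3 to 69.0) and 2.48% of ES domains. Without a knockdown, for ES domains within differentiated domains, they were 35.3% (interval 33.2 to 37.5) and 11.99%. Domain length also differed, with a median of 7600 bp in the ES list and 19800 bp in the differentiated list. An end was within 1 kb at any length, and the shares were not compared at equal length.

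Many remaining pieces began at the boundary of the differentiated domain. In domains with Fbxl19 at 1 end there were 560 knockdown pieces. The boundary of 243 of them (43.4%) coincided with the Fbxl19 end of the differentiated domain, on the 200-bp grid on which both lists are drawn, and 390 (69.6%) lay within 200 bp of it. From there H2Bub1 became less frequent with distance. At 1 to 2 kb from the Fbxl19 end, 90.4% of the 539 kept domains with Fbxl19 at 1 end still had H2Bub1 listed (interval 87.5 to 92.7). At 5 to 6 kb it was 70.0% of 516 domains, at 10 to 11 kb 52.0% of 446 and at 20 to 21 kb 36.5% of 329, the domains too short for a distance being left out. Counted from the other end, the share was 10.6% (interval 8.11 to 13.5) in the first kb, 32.8% at 5 to 6 kb and 46.8% at 20 to 21 kb.

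**Figure D3:**
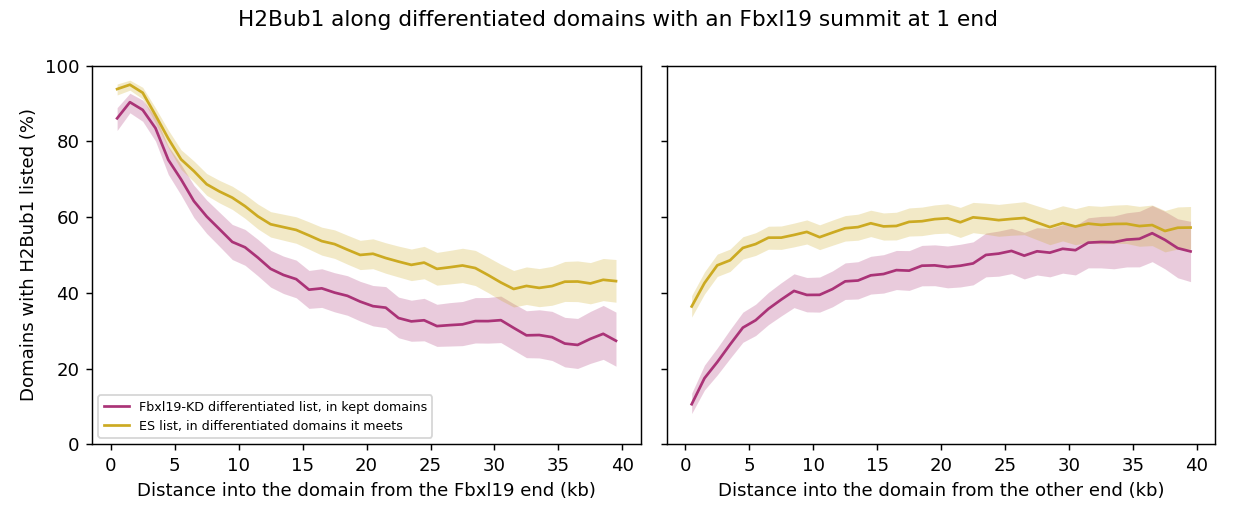
Percent of differentiated domains with H2Bub1 listed (y axis) at each distance in kb into the domain (x axis) from the end with an OE-high Fbxl19 summit (left) and from the other end (right). Lines are the differentiated knockdown in kept domains and the ES list in the differentiated domains it meets, which are different sets of domains, and bands are exact 95% intervals. In the knockdown the share was 86.1% in the first kb from the Fbxl19 end and 10.6% in the first kb from the other end.

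The run of H2Bub1 from the Fbxl19 end was longer in longer domains, but took up less of them. A short domain leaves room only for a short run, so part of the rise in kb is set by the length classes themselves. Among pieces at the Fbxl19 end, it had a median of 4.7 kb (interval 4.2 to 5.4, 72 pieces) in domains of 5 to 10 kb, or 73.0% of the domain. In domains of 10 to 20 kb the median run was 7.8 kb (interval 6.8 to 8.8, 116 pieces), and in those of 20 to 40 kb 12.4 kb (interval 10.2 to 14.6, 173 pieces). It was 16.8 kb (interval 11.8 to 20, 97 pieces) in domains of 40 to 80 kb, or 32.3% of the domain. In the 27 pieces of domains of 80 kb or more it was 37.4 kb (interval 25.8 to 76.4), or 38.1%, a share whose interval (23.7 to 73.9) overlaps that of the class before.

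**Figure D4:**
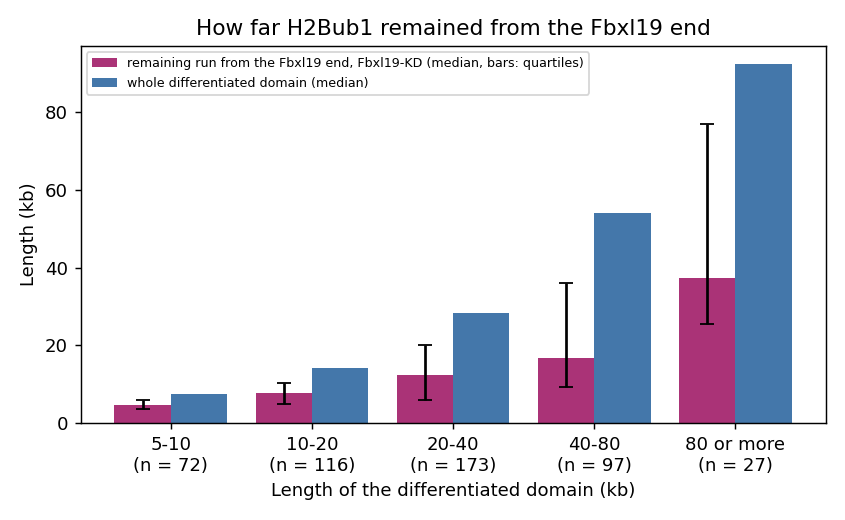
Median length in kb (y axis) of the H2Bub1 run that remained from the Fbxl19 end in the differentiated knockdown, with whiskers from the lower to the upper quartile, beside the median length of the whole differentiated domain, by domain length class (x axis, with the number of pieces). The run was 4.7 kb in domains of 5 to 10 kb and 16.8 kb in domains of 40 to 80 kb.

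The longest domains that remained at 1 end with Fbxl19 there were as follows. The longest had a summit at both ends and is not among the 438. At chr13:44824600-45097399, of 272800 bp, the part from 44823800 to 44998199 remained, which covers 63.6% of the domain. It began beside an Fbxl19 summit at 44824080, and a further summit at 45097377 lay at the end that was lost. At chr16:38089600-38241399 the part from 38089800 to 38186999 remained, beside a summit at 38089495, and covered 64.0%. At chr6:119855600-119988599 the part from 119939800 to 119988799 remained, beside a summit at 119988761 at the upper end, and covered 36.7%. The first held 20 Rnf20 peaks, the second 1 and the third none.

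The 3 longest of the 16 exceptions were as follows, and their length follows from that choice. At chr11:3189800-3309199, with 6 OE-high Fbxl19 peaks, pieces remained from 3190400 to 3208599 and from 3260400 to 3271599, away from the summit at 3309228. At chr17:15080200-15192399, where 9 Rnf20 peaks and 8 of OE-high Fbxl19 lay, all but the first part remained, from 15095800 to 15192399, and the summit at 15080226 lay outside it. At chr8:98239600-98331399 the part from 98297200 to 98331199 remained, and the only Fbxl19 peak lay at the other end, with its summit at 98239905. Of the 16 remaining parts, 4 held an Fbxl19 peak and 7 an Rnf20 peak. For Rnf20 that is 43.8% (interval 19.8 to 70.1), against 41.2% (interval 36.5 to 46.1) of the 422 parts that remained at the Fbxl19 end. In a further 142 domains a single end remained with no Fbxl19 summit at either end. The remaining part held an Fbxl19 peak in 38 of them, or 26.8% (interval 19.7 to 34.8). Over all knockdown pieces in differentiated domains it was 787 of 996, or 79.0% (interval 76.4 to 81.5). The 142 were picked for lacking a summit at their ends, which by itself lowers their share.

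Interior remnants also lay at Fbxl19. The 200 interior domains held 203 pieces, and an OE-high Fbxl19 summit lay inside or within 1 kb of 178 of them, or 87.7% (interval 82.4 to 91.9). In 148 pieces, 72.9% (interval 66.2 to 78.9), the summit lay within 1 kb of exactly 1 end of the piece. Where the domain held exactly 1 summit, 91 of 94 domains, or 96.8% (interval 91.0 to 99.3), had it at the piece, and the pieces with 1 kb on either side took up 38.5% of the length of these domains. Over all interior domains, 222 of 343 summits, or 64.7%, lay at a piece, and the other summits lay in parts that were not listed. The pieces with 1 kb on either side took up 35.1% of the length. Summits of the same domain are not independent, so no interval is given for their share. The longest of the class, chr15:96103200-96293799, retained 3.99% of its 190600 bp, from 96283600 to 96291199. At chr1:34141600-34313199, with 4 OE-high Fbxl19 peaks, 7.34% remained, and at chr8:125404200-125569399, with a score of 24.7, 78.2% remained.

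Counted over windows of 200 bp, the gap between windows with and without Fbxl19 was wider at domain ends than in the interior. Within 1 kb of an end of a kept domain, 76.4% of windows with an Fbxl19 summit within 1 kb remained, against 21.8% of those without. Farther inside, 49.0% of windows with a summit and 42.7% of those without remained. Windows of the same domain are not independent, so no interval is given. Among domains that kept both ends, chr4:41083000-41222199 and chr1:38055000-38186599 remained as 2 pieces, 1 at each end, covering 45.3% and 44.2%. The first of these had an Fbxl19 summit at its upper end only, and its longer piece, of 38400 bp, lay at the lower end. The second had a summit at each end, and chr1:183833000-183949999 remained whole with a summit at its upper end.

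Kept domains were unevenly spread over chromosomes, a contrast chosen after the values were seen. On chromosome 1, 141 of 421 domains were kept, or 33.5% (interval 29.0 to 38.2), and on chromosome 11, 150 of 510, or 29.4% (interval 25.5 to 33.6). The other autosomes ranged from 12.1% on chromosome 12 to 19.4% on chromosome 10. On the X chromosome none of 27 domains was kept, with an exact upper limit of 12.8%, and 3 counts of 27 would be 11.1%. The knockdown list had 5 domains on the X chromosome, none of which met a differentiated domain. Differentiated domains on the X chromosome had the lowest median score (8.35) and the shortest median length (9400 bp) of any chromosome. Over all chromosomes, 5.62% of domains in the lowest quartile group of scores were kept. Chromosomes 1 and 11 together kept 31.3% (interval 28.3 to 34.3), against 16.2% on the other autosomes (interval 15.1 to 17.4). In the highest score quartile group the kept share was 54.5% on chromosomes 1 and 11 (interval 49.1 to 59.9) against 40.1% on the other autosomes (interval 36.9 to 43.3), and in the next group 27.2% (interval 21.5 to 33.5) against 13.8% (interval 11.8 to 16.02). In the lower groups the intervals overlap, at 12.6% (interval 8.37 to 17.9) against 9.49% (interval 7.80 to 11.4) and, in the lowest, 10.5% (interval 6.10 to 16.4) against 5.02% (interval 3.82 to 6.47). The share of remaining ends at Fbxl19 was high in both, 98.4% of 127 and 95.5% of 311 domains. Median domain scores on chromosomes 1 and 11 were 11.1 and 11.4, and that on chromosome 10, with 19.4% kept, was 11.1.

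**Figure D5:**
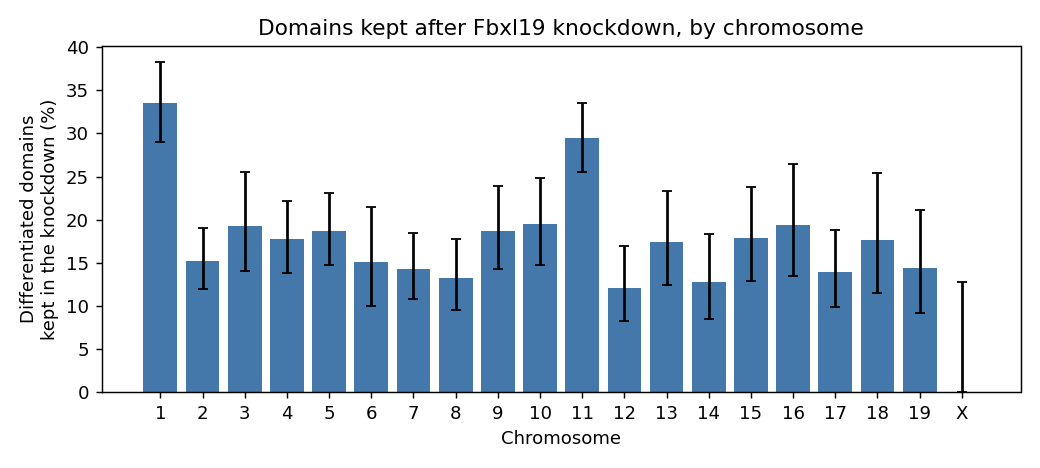
Percent of differentiated H2Bub1 domains kept with Fbxl19 knocked down (y axis) by chromosome (x axis). Bars are shares and whiskers exact 95% intervals over domains. Chromosomes 1 (33.5%) and 11 (29.4%) stood above the other autosomes, and the X chromosome had no kept domain among 27.

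Few domains were listed in the differentiated knockdown alone. Of its 1090 domains, 100 had no differentiated counterpart, or 9.17% (interval 7.53 to 11.05), and together they covered 0.770 Mb. They were short, with a median of 1600 bp against 8600 bp for knockdown domains with a counterpart, and 47 of them were under 1 kb, against 9 of the other 990. None lay within 10 kb of a differentiated domain, the nearest being 11200 bp away. Fbxl19 of the OE-high clone had a peak in 30% of them (interval 21.2 to 39.98) and in 78.9% of those with a counterpart (interval 76.2 to 81.4). Rnf20 was about as frequent in both, at 42.0% (interval 32.2 to 52.3) and 39.9% (interval 36.8 to 43.0). The 2 sets differ in length, as given above, and these peak shares were not compared within length classes. Of the 100, 33 met no domain in any other H2Bub1 list. The 3 highest scores belonged to chr9:56071400-56071799 (63.3), chr11:108873000-108873599 (57.3) and chr9:123370800-123371399 (48.7), each of 400 to 600 bp with an Rnf20 peak and no Fbxl19 peak, and each also in at least 1 H2Bub1 list of ES cells. With domains of at least 2 kb only, 50 of 1010 knockdown domains (4.95%) had no counterpart. The share was 27.7% with the top 50% of each list and 51.1% when the differentiated list was cut to its 1090 highest scores.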

How the data were processed

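H2Bub1 domains of the differentiated Fbxl19 knockdown and of differentiated cells were compared, with 6 further lists for reference. Of builds, mm9 is named, and of tools MACS and BWA 0.5.9-r16, per the submitters' processing notes, which do not tie a tool to a list. The H2Bub1 lists are combined sets whose track lines end in BCP, a caller of broad domains, per the file headers. The authors' deposited scores have a formula not given in the sources used here and were used only within a list. Boundaries of H2Bub1 domains are spaced in steps of 200 bp. Coordinates of both Fbxl19 lists were taken to count from 1 and those of the others from 0, and all are printed counting from 1. Depth per sample is unknown.

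Groups follow the sample titles. Overlap was 1 bp or more, an end was within 1 kb, and positions were read in domains of at least 5 kb. The longest or highest-scoring 3 regions of each class are named, whichever the class called for. The comparison, its classes and this rule were chosen with earlier results of these data known. No genome or annotation of mm9 was used here, so no domain was assigned to a gene and no sequence is shown. The code was tested on simulated data. Python 3.11.15, NumPy 2.4.6, pandas 2.3.3, SciPy 1.17.1 and matplotlib 3.10.9 were used. Alternatives changed the overlap, the score threshold, the list size, the chromosomes, the distances and the peak list.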

Additional observations from a re-analysis of the deposited data

How the results depend on the processing

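No paired analysis was possible because each group was deposited as 1 combined list, and for the same reason no replicate could be left out. Of 60 alternative values, 32 stayed within the counting error of the value reported, 27 moved outside it and 1 turned its direction. For the share of domain length remaining, that error was counted over windows of 200 bp. Such windows are not independent, so for this share the split between within and outside is uncertain. The turned value is the ratio of median lengths, kept over lost, at 0.86 with 50% of the domain covered, against 1.43. It was 1.02 with the top 50% of each list and 1.19 with lists of the same size.

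With 50% of the domain covered, 9.07% of domains were kept and the Fbxl19 difference, lost minus kept, was -6.78 percentage points. With the top 50% of each list by score, 15.3% of domains and 7.21% of their length remained, a kept domain was covered at a median of 56.3%, the Fbxl19 difference was -7.16 and 27.7% of knockdown domains had no counterpart. With lists of the same size these values were 47.8%, 30.4%, 65.7%, -7.07 and 51.1%, and 16.6% of kept domains had an interior remnant only. Without chromosomes 1 and 11, a choice made after seeing the data, 16.1% of domains and 7.47% of their length remained, and 11.7% of knockdown domains had no counterpart. In domains of at least 2 kb, also chosen later, the last share was 4.95%.

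With ends read within 200 bp, 29.2% of kept domains had an interior remnant only. Within the outer 10% of the domain it was 13.5%, with 73.3% at 1 end only and 94.0% of remaining ends at Fbxl19. With OE-low peaks that share was 90.9% and with Rnf20 peaks 93.5%, and the differences between lost and kept domains were -8.35 and -18.5 percentage points. The share of remaining ends at Fbxl19 stayed between 90.9% and 97.0% under all its alternatives. As above, it was read only in domains with a peak at exactly 1 end.

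The lists hold no counts, so a domain that fell below the caller's threshold cannot be told from one without H2Bub1, and the unknown depth limits every share given here.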

Other observations

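Of the 611 kept domains in which a single end remained, 351 (57.4%, interval 53.4 to 61.4) remained at the lower coordinate and 260 at the upper. In the 438 of these with an Fbxl19 summit at exactly 1 end, the summit lay at the lower coordinate in 241 and at the upper in 197. Without gene annotation of this build, the strand of the genes behind these ends was not analysed here. Of the 100 domains listed in the differentiated knockdown alone, 11 were at least 20 kb long, unlike the 47 under 1 kb.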
